A study of Mus musculus with 10 samples.

Results

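The NOTCH pathway was followed through 10 genes in mouse T-ALL (acute lymphoblastic leukemia of the T lineage, a malignancy of developing T cells): the receptors Notch1, Notch2 and Notch3 and the target genes Dtx1, Hes1, Hes5, Heyl, Nrarp, Ptcra and Igf1r. They were chosen by symbol, with no rule on measured values but with earlier results of these data known. All 10 were found among the 20813 genes of the table. Total RNA was sequenced from leukemic spleens of C57BL/6 mice after red blood cells had been lysed. Every recipient had been given T-ALL cells by vein after sublethal irradiation. The transplanted leukemias were conditional knockouts for Sirt1, so the controls share this background. One group of 5 samples is labelled Sirt1 deleted and has TMX in its titles, read here as the tamoxifen arm of the labels' treatment protocol, an intraperitoneal injection of 3 mg per mouse in corn oil. The other 5 samples are labelled Control and have VEH in their titles, read as the vehicle arm of corn oil alone. Genotype label and treatment coincide in every sample, so the effects of tamoxifen and of the deletion cannot be told apart. The Cre driver, the oncogene behind the leukemias, the number of primary leukemias and the age of the mice are not given in the sources used here. Nothing in the labels says that each sample is a separate mouse, so the p-values below measure the spread between these samples, which may be technical in part.

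NOTCH receptors are surface proteins that are cut when a ligand on a neighbouring cell binds them. The freed intracellular part enters the nucleus, joins the DNA-binding protein RBPJ and a Mastermind coactivator, and switches on target genes. The pathway drives early T cell development in the thymus, and activating mutations of NOTCH1 are common in T-ALL. Hes1, Hes5 and Heyl encode transcriptional repressors of the basic helix-loop-helix class, Dtx1 encodes the E3 ubiquitin ligase Deltex1, and Nrarp encodes an ankyrin repeat protein that limits NOTCH signalling. Ptcra encodes the pre-T cell receptor alpha chain, which pairs with the T cell receptor beta chain in immature thymocytes, and Igf1r encodes the receptor for insulin-like growth factor 1, a NOTCH1 target in T-ALL.

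RBPJ binds DNA around the letters TGGGAA, and the promoters of the members were searched for it on both strands. RefSeq windows of 300 bases (250 before and 50 after the start site, build GRCm38.p6) were matched for 8 of the 10 genes, with no entry for Hes1 and Heyl. The 6 letters occurred in 3 of the 8 windows, against 25.6% of all 32851 windows of this length. The Hes5 and Ptcra windows each held 2 matches, which 3.79% of all windows did. The longer form CGTGGGAA, which contains the shorter, was in none of the 8 windows and in 0.734% of all windows. No other longer form was searched. In the Hes5 window printed below, both matches read TGTGGGAA in their own orientation, which differs from the longer form in its first letter. How many of all windows hold TGTGGGAA was not counted. The windows of Notch1, Notch2, Notch3, Dtx1 and Nrarp held no match, which says only that these letters are not in those 300 bases. The 3 windows with a match are printed because their genes behaved in 3 different ways below, Hes5 lower, Igf1r within the spread and Ptcra divided within a group. Capitals mark the matches. The window of Hes5 is chr4:154960673-154960972 on the plus strand, with matches that begin at bases 25 (reverse orientation) and 169. That of Ptcra is chr17:46763663-46763962 on the minus strand, with matches that begin at bases 167 and 219. That of Igf1r is chr7:67952007-67952306 on the plus strand, with a match that begins at base 280, after the start site that RefSeq gives. The gene positions below are from GENCODE M21, whose gene start matches the RefSeq start site for Hes5, Nrarp and Ptcra. For Igf1r, Notch1, Notch2, Notch3 and Dtx1 the start sites differ. The printed Igf1r window lies wholly before the GENCODE start, and the Notch1 and Dtx1 windows lie wholly inside the GENCODE genes.
Hes5: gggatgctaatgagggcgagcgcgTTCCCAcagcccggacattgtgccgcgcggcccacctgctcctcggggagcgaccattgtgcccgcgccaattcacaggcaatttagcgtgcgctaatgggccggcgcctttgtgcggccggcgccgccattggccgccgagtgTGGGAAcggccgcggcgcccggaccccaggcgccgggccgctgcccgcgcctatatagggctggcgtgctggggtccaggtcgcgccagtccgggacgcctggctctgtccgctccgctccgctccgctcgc
Ptcra: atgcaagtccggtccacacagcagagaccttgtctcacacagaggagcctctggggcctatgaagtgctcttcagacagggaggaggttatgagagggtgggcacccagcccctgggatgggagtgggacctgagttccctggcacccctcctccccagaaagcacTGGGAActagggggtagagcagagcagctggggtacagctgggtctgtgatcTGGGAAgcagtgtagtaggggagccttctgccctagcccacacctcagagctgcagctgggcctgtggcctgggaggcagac
Igf1r: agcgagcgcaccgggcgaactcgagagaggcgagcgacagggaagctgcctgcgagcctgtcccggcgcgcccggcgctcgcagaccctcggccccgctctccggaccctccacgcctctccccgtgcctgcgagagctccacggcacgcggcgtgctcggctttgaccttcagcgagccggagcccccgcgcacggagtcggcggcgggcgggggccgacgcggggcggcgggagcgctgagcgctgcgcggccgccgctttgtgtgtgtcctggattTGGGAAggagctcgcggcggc

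The values are gene counts divided by normalization factors, called normalized counts here, and they summed to between 33.7 and 34.5 M per sample. Sirt1 itself did not separate the groups, at 1873 ± 146 (SD, n = 5) normalized counts in the samples labelled Sirt1-deleted and 1810 ± 62.5 (SD, n = 5) in controls (limma adjusted p = 0.568). This is a single value for the whole gene in bulk spleen, so it cannot show whether part of the gene was deleted. The group is therefore called labelled Sirt1-deleted throughout. On the first principal component, which carried 39.2% of the variance, labelled Sirt1-deleted samples 10 and 11 lay nearest to the controls. T lineage markers were abundant in both groups (summed level 375566 to 429062 against 358789 to 390030). Of these 20, 9 differed at a limma adjusted p under 0.05, 4 higher and 5 lower, 45% beside 36.1% of all tested genes. Markers of some other cells moved with the groups: 13 of 14 neutrophil markers were higher, with a summed level of 29460 to 101991 against 9324 to 12920, and 13 of 16 macrophage and monocyte markers were higher, at 7111 to 13061 against 3434 to 3918. Other lists moved less, with 0 of 10 erythroid, 0 of 3 tested NK cell and 2 of 6 dendritic cell markers called. B cell and stromal markers are given below. The part of these cells in the results below was not tested.

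Notch1, Notch2 and the repressor genes Hes5 and Heyl were lower in the labelled Sirt1-deleted group, and Dtx1 was higher. Of the 10 members, 5 passed the threshold, a limma adjusted p under 0.05 over all 15276 tested genes, and 36.1% of all tested genes did. Dtx1 was the single member that passed as higher (16.8% of all tested genes), and Notch1, Notch2, Hes5 and Heyl passed as lower (19.4% of all). Of all calls 46.4% were higher, and 58.2% under upper-quartile rescaling, which left the members at 1 higher and 4 lower. Values of the groups did not overlap for Notch2, Dtx1, Hes5 and Heyl, 4 of 10, beside 24.0% of all tested genes. The median log2 difference of the members was -0.26, against -0.00014 over all tested genes, but their directions were mixed, with 3 positive and 7 negative differences. All log2 differences are labelled Sirt1-deleted minus control on the log2(value + 1) scale. In bulk spleen, fewer cells of a type and less RNA per cell cannot be told apart.

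**Figure D1:**
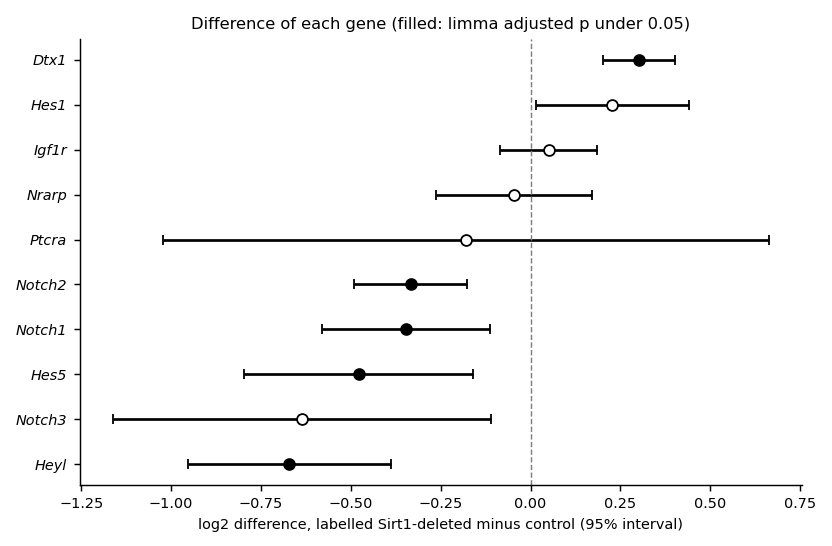
Log2 difference (labelled Sirt1-deleted minus control) of each member on the horizontal axis, with its 95% limma interval; filled points have an adjusted p under 0.05. With all samples, Dtx1 lies to the right at 0.30 and Heyl farthest to the left at -0.67, and the interval of Ptcra, from -1.02 to 0.66, is the widest.

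Notch1, the receptor most often mutated in T-ALL, was the most abundant receptor and was lower in the labelled Sirt1-deleted group. The gene lies at chr2:26457903-26516663 on the minus strand (GRCm38, GENCODE M21). Its normalized counts in labelled Sirt1-deleted samples 7, 8, 10, 11 and 12 were 16382, 19574, 22982, 24187 and 15979. Controls 2, 3, 4, 5 and 6 measured 27527, 24773, 23102, 24961 and 24126. Sample 11 lay inside the control range, sample 10 just below it, and samples 7, 8 and 12 well below it. The group difference was -0.35 on the log2 scale (SE 0.11, 95% interval -0.58 to -0.11, limma adjusted p = 0.0247; exact permutation p = 0.0238). The call was lost without labelled Sirt1-deleted sample 7 (-0.28, limma adjusted p = 0.0629) or sample 12 (-0.27, 0.0561), without control 2 (-0.31, 0.0641), and with limma without an intensity trend (0.0554) or the exact rank-sum test (0.0823).

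Notch2, the paralogue best known for its need in marginal zone B cells, fell by a similar factor and with less scatter. It lies at chr3:98013527-98150361 on the plus strand. Samples 7, 8, 10, 11 and 12 of the labelled Sirt1-deleted group measured 798, 875, 870, 865 and 747 normalized counts. The controls measured 1173, 979, 961, 1086 and 1041, so every labelled Sirt1-deleted sample was below every control. Its log2 difference was -0.33 (SE 0.07, 95% interval -0.49 to -0.18), with a limma adjusted p of 0.00460 and an exact permutation p of 0.00794, the smallest this design can give. Notch2 passed in all of the alternatives run for it. Of 12 B cell markers 1 passed, the immunoglobulin gene Igkc, as higher, beside 36.1% of all tested genes, and their summed level was 23561 to 34139 against 19519 to 24672. The part of B cell content in the Notch2 values was not tested.

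Notch3, a receptor that is itself induced by NOTCH1 in T-ALL and is otherwise typical of vascular mural cells, had a larger difference than either but did not pass the threshold. It lies at chr17:32120820-32166852 on the minus strand. Its normalized counts in labelled Sirt1-deleted samples 7, 8, 10, 11 and 12 were 600, 916, 1571, 1297 and 609. The controls measured 1610, 1493, 1762, 1216 and 1203. Samples 7, 8 and 12 were below every control, while 10 and 11 were inside the control range. For Notch3 the log2 difference was -0.64 (SE 0.24, 95% interval -1.16 to -0.11, limma adjusted p = 0.0577; exact permutation p = 0.0873). It passed without sample 10 (-0.83, limma adjusted p = 0.00804), without sample 11 (-0.76, 0.0316) and with sample weights (-0.72, 0.0141). Among 12 stromal and endothelial markers, 4 were under the filter on low values (Cdh5, Tek, Pdgfra and Rgs5). Of these, Cdh5 measured 3.10 ± 2.67 against 14.1 ± 5.19 (SD, n = 5 each) in controls, without overlap, and was not tested. Of the 8 tested, Pdgfrb and Col1a2 were lower and none was higher, 25% beside 36.1% of all tested genes. Without passing, Col3a1 (1.17) and Col1a1 (0.23) had positive log2 differences, and Pecam1 (-0.042) and Egfl7 (-0.0038) were near 0. Pdgfrb measured 1459 ± 469 (SD, n = 5) against 2170 ± 365 (SD, n = 5), and the mural cell marker Rgs5 was near 0, at 5.05 ± 7.62 against 2.10 ± 2.14. The summed level of the list, with the lower genes Pdgfrb and Col1a2 included, was 5456 to 6048 against 6256 to 7196. The part of these cells in the Notch3 and Heyl values was not tested.

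**Figure D2:**
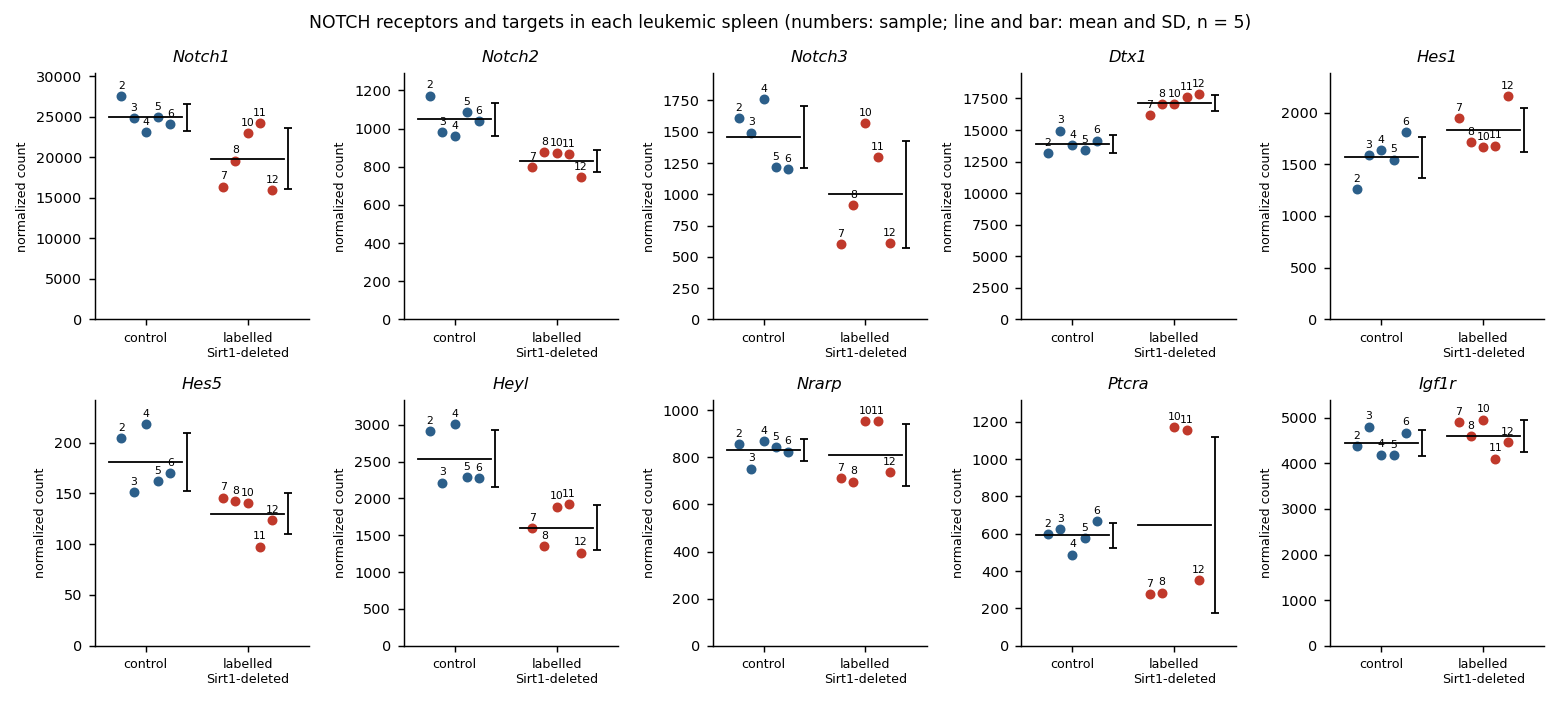
Normalized count of each member (vertical axes, from 0) in 5 control and 5 labelled Sirt1-deleted samples; the number beside a point is the sample, the line is the group mean and the bar at its right the SD. Notch2, Dtx1, Hes5 and Heyl show no overlap, and Ptcra divides the labelled Sirt1-deleted samples into 278 to 351 and 1157 to 1171.

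The 3 repressor genes of the HES and HEY families did not move together. Heyl, at chr4:123233556-123249875 on the plus strand, had the largest difference of the members in the fit of all samples. Notch3 had a larger one with sample weights (-0.72 against -0.66), without labelled Sirt1-deleted sample 8 (-0.63 against -0.61), 10 (-0.83 against -0.74) or 11 (-0.757 against -0.742), and without both 10 and 11 (-1.05 against -0.85). Its normalized counts in labelled Sirt1-deleted samples 7, 8, 10, 11 and 12 were 1591, 1351, 1888, 1924 and 1263. The controls measured 2915, 2214, 3007, 2290 and 2274, and the highest labelled Sirt1-deleted sample stayed below the lowest of them. The difference was -0.67 (SE 0.13, 95% interval -0.95 to -0.39, limma adjusted p = 0.00260), which is 0.628-fold of the control level. It passed in each alternative run for it.

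Hes5, on the same chromosome at chr4:154960923-154962371 and also on the plus strand, was the least abundant member in normalized counts and fell as well. It measured 146, 142, 141, 97.5 and 123 in labelled Sirt1-deleted samples 7, 8, 10, 11 and 12. The controls measured 204, 151, 218, 162 and 170, again with no overlap between the groups. Unlike in the receptors, sample 11 was the lowest of its group here. The Hes5 difference was -0.48 on the log2 scale (SE 0.15, 95% interval -0.80 to -0.16, limma adjusted p = 0.0236). The call was lost without control 2 (-0.43, limma adjusted p = 0.0617) or control 4 (-0.41, 0.0595), the highest controls.

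Hes1, the best studied of the family in T-ALL, leaned the other way without passing. It lies at chr16:30064384-30067796 on the plus strand. Labelled Sirt1-deleted samples 7, 8, 10, 11 and 12 measured 1947, 1713, 1664, 1679 and 2159 normalized counts. Controls measured 1260, 1591, 1633, 1544 and 1810, so the groups overlapped and only samples 7 and 12 were above every control. The Hes1 difference was 0.23 on the log2 scale (SE 0.10, 95% interval 0.014 to 0.44, limma adjusted p = 0.0889). Without control 6, the highest control, it was 0.28 and passed (limma adjusted p = 0.0477).

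Dtx1 rose, and it was the most even of the members. The gene is at chr5:120680202-120711927 on the minus strand. Labelled Sirt1-deleted samples 7, 8, 10, 11 and 12 measured 16194, 17028, 17050, 17605 and 17820 normalized counts. The controls measured 13164, 14956, 13814, 13411 and 14155. All 5 labelled Sirt1-deleted samples were above all controls, and their SD was 3.68% of their mean. The log2 difference was 0.30 (SE 0.05, 95% interval 0.20 to 0.40, limma adjusted p = 8.38e-04), and it passed in each alternative run for it.

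In Nrarp and Ptcra, the labelled Sirt1-deleted samples lay on both sides of the controls, and neither gene passed. Nrarp is at chr2:25180758-25183339 on the plus strand, 1.27 Mb from Notch1. Its normalized counts were 712, 697, 954, 954 and 736 in labelled Sirt1-deleted samples 7, 8, 10, 11 and 12. The controls lay between 752 and 870, with a median of 845 in sample 5 and the values 857, 752, 870 and 824 in samples 2, 3, 4 and 6. Samples 10 and 11 were above all controls and samples 7, 8 and 12 below all of them. Its group difference was -0.046 on the log2 scale (SE 0.10, 95% interval -0.26 to 0.17, limma adjusted p = 0.751), and its sign turned to positive under upper-quartile rescaling (0.013).

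Ptcra, at chr17:46755663-46763712 on the minus strand, had the same arrangement on a wider scale. Labelled Sirt1-deleted samples 7, 8, 10, 11 and 12 measured 278, 284, 1171, 1157 and 351 normalized counts. The controls were close together, at 600, 624, 488, 576 and 668. Samples 10 and 11 stood at 1.99-fold and 1.97-fold of the control mean on the log scale, and samples 7, 8 and 12 at 0.473-fold, 0.484-fold and 0.598-fold. The log2 difference was -0.18 (SE 0.39, 95% interval -1.02 to 0.66, limma adjusted p = 0.75), an interval wide enough to hold a change by a factor of 0.492 or 1.58. The SD of log2 values in the labelled Sirt1-deleted group was 6.34 times that in controls, and 0.792% of tested genes had a larger ratio. For Nrarp the ratio was 2.77, for Notch1 2.93 and for Notch3 2.56, while the median over tested genes was 1.29.

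Igf1r varied little. It lies at chr7:67952827-68233668 on the plus strand. Labelled Sirt1-deleted samples 7, 8, 10, 11 and 12 measured 4902, 4600, 4959, 4106 and 4466 normalized counts, and the controls 4376, 4807, 4195, 4179 and 4676. The groups overlapped widely, with a log2 difference of 0.050 (SE 0.06, 95% interval -0.08 to 0.18, limma adjusted p = 0.557). The interval corresponds to factors of 0.943 to 1.14.

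**Figure D3:**
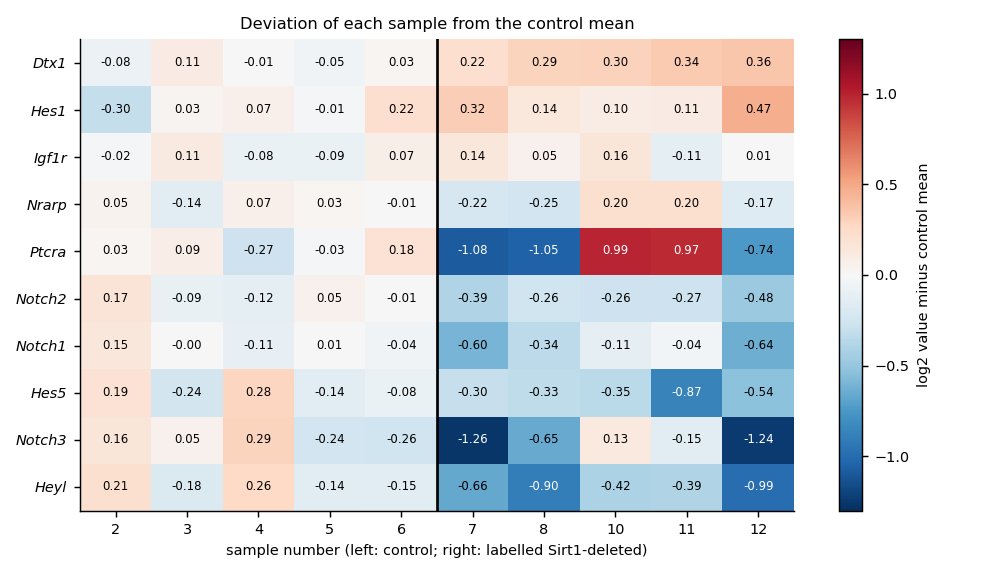
Log2 value of each member (rows) in each sample (columns, controls at the left) minus the control mean of that gene, in blue where lower and red where higher. Samples 10 and 11 differ from 7, 8 and 12 most in Ptcra, where they stand at 0.99 and 0.97 against -1.08, -1.05 and -0.74.

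Single samples thus did not follow the group label evenly. In Notch1, Notch3, Heyl, Nrarp and Ptcra, labelled Sirt1-deleted samples 10 and 11 were the highest 2 of their group, and in Hes1 they were the lowest 2. In Dtx1, Notch2, Hes5 and Heyl they were on the same side of every control as samples 7, 8 and 12. Sample 10 was the highest of all 10 samples for Nrarp, Ptcra and Igf1r, and sample 12 was the lowest of all for Notch1, Notch2 and Heyl. Neutrophil markers were also at their lowest of the group in samples 10 and 11 (summed level 29460 and 40336, against 45368 to 101991 in the other 3), still above all controls. The summed level of T lineage markers was lowest in these samples too (375566 and 387264, against 422055 to 429062), but the most abundant genes weigh most in this sum. Single T lineage markers went both ways. Lck was lowest in samples 10 and 11 (28695 and 29481, against 32303 to 33296). Cd3e was highest there (14317 and 12735, against 9883 to 12099). The macrophage and monocyte sum did not set samples 10 and 11 apart, with sample 12 at 7920 and sample 11 at 8329. The part of cell content in the division was not tested. Without samples 10 and 11, a choice made after seeing the data and for their closeness to the controls, 8 members passed, 2 as higher and 6 as lower, and the share of all tested genes that passed rose as well, from 36.1% to 45.6%. That count is no independent support, since the 2 samples were picked by their expression.

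Ratios of members within a sample do not depend on how samples were scaled against each other, so they were compared as a description with no test. The log2 ratio of Dtx1 to Notch1 was -0.46 to 0.16 in the labelled Sirt1-deleted samples and -1.06 to -0.73 in controls, with no overlap. The groups overlapped in every other ratio of a member over Notch1 and in all ratios over Notch3. Dtx1 over Notch3, for example, was 3.44 to 4.87 against 2.97 to 3.56 in controls on the log2 scale. Heyl over Hes1 fell from a ratio of 1.26 to 2.31 in controls to 0.585 to 1.15, and Hes5 over Hes1 from 0.0936 to 0.162 in controls to 0.0572 to 0.0845, both without overlap. Both pairs set a gene that was lower over one that leaned higher, so their separation is no further support beyond the single genes. The same holds for Dtx1 over Notch1, which sets a gene called higher over one called lower. Members thus changed unequally against each other. In contrast, Notch2 over Notch1 was 0.0357 to 0.0487 in the labelled Sirt1-deleted samples, a range that held all controls (0.0395 to 0.0435). Ptcra over Dtx1 again divided the group, at 0.0687 and 0.0657 in samples 10 and 11, 0.0167 to 0.0197 in samples 7, 8 and 12, and 0.0354 to 0.0472 in controls. These ratios are of normalized counts and not per length, so only their change between samples is read.

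**Figure D4:**
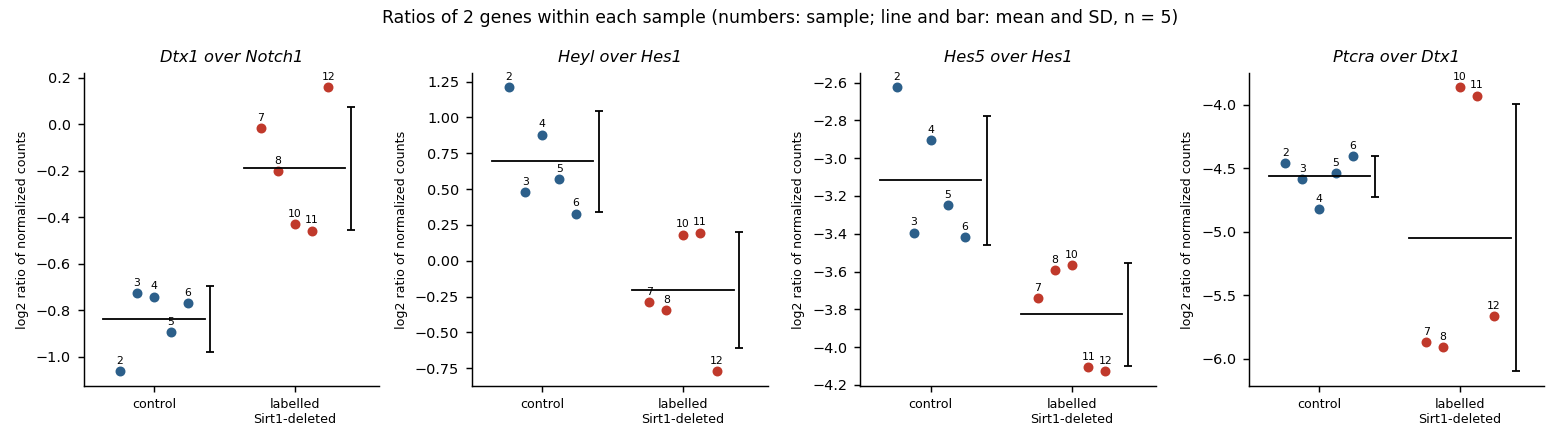
Log2 ratio of normalized counts of 2 members within each sample (vertical axes; points numbered by sample, line and bar show the mean and SD, n = 5). Dtx1 over Notch1 is higher in all labelled Sirt1-deleted samples, Heyl over Hes1 and Hes5 over Hes1 are lower in all, and Ptcra over Dtx1 lies on both sides of the controls.

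Per kb of transcript, Dtx1 and Notch1 led the members in both groups. The lengths are those of the principal coding transcripts in GENCODE M21, which may not be the annotation the authors used. Controls gave 3445 ± 174 (SD, n = 5) normalized counts per kb for Dtx1, 2624 ± 173 for Notch1 and 1068 ± 136 for Hes1, with no overlap between neighbours in this order. Then followed Heyl at 560 ± 85.2, Ptcra at 461 ± 52.0 and Igf1r at 390 ± 24.9 per kb. Heyl overlapped Ptcra, and Ptcra overlapped Igf1r. Nrarp at 321 ± 17.9 per kb was separate from Igf1r and from Notch3 at 182 ± 30.6. Notch3 overlapped Hes5 at 142 ± 22.5, and Notch2 was the lowest at 99.8 ± 8.15 per kb. In the labelled Sirt1-deleted samples the first 3 places were unchanged, with Dtx1 at 4248 ± 156, Notch1 at 2089 ± 393 and Hes1 at 1248 ± 147 per kb, and Heyl came after Ptcra and Igf1r at 353 ± 66.4 with overlapping ranges.

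The other genes of the pathway were taken from a list of 74 genes by role, of which 70 passed the filter on low values. Differences in 30 of these (42.9%) were called, 24 lower and 6 higher, beside 36.1% of all tested genes. With upper-quartile rescaling 17 were lower and 12 higher. The counts per role that follow are small, and over all tested genes 19.4% were lower and 16.8% higher. Their median log2 difference was -0.065. The fourth receptor gene, Notch4, measured 44.1 ± 18.5 normalized counts against 38.6 ± 13.4 (SD, n = 5 each) and did not pass (limma adjusted p = 0.690).

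Of the 5 ligand genes, Jag2 had the highest normalized counts, at 185 ± 34.1 against 160 ± 32.6, and did not pass (limma adjusted p = 0.308). Dll1 and Dll4 had means under the filter in the 10 samples, Dll4 at 2.87 ± 3.31 against 4.39 ± 1.88 normalized counts. Jag1, which encodes the ligand Jagged1, was the single ligand gene of 3 tested that passed and it rose from 11.6 ± 2.54 to 28.6 ± 11.1 (both SD over 5 samples), a log2 difference of 1.19 with a limma adjusted p of 0.00815. Macrophage and monocyte markers were also higher in that group, but not sample by sample. Within the labelled Sirt1-deleted group, Jag1 was highest in sample 10 (46.5), where their summed level was lowest (7111). It was lowest in sample 8 (17.5), where their summed level was highest (13061). The part of these cells in the Jag1 values was not tested. None of the 5 genes that glycosylate the receptors passed; Lfng, the lunatic fringe gene, measured 906, 943 and 850 in labelled Sirt1-deleted samples 7, 8 and 12, 435 and 550 in samples 10 and 11, and 542 to 627 in controls.

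Among 10 genes for cutting the receptor, 4 were lower and none was higher, and these 40% stand beside the 36.1% of all tested genes. Adam10, which encodes a protease that cuts the receptor after ligand binding, fell from 4867 ± 325 to 3711 ± 435 normalized counts (log2 difference -0.40, limma adjusted p = 0.00263). Furin (-0.20) and Aph1a (-0.15) were lower too, and Psen2 did not pass, at 662 ± 149 against 527 ± 52.2 (0.30, limma adjusted p = 0.0995).

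Of the 8 genes of the nuclear activator complex, 5 were lower and 1 was higher. Rbpj, the DNA-binding partner of NOTCH, fell from 3322 ± 125 to 2668 ± 198 normalized counts (-0.32, limma adjusted p = 0.00172), without overlap between the groups. Snw1 (-0.28), Maml3 (-0.27) and Maml1 (-0.24), for a coactivator and 2 Mastermind proteins, were lower as well, as was the acetyltransferase gene Ep300 (-0.20). The acetyltransferase gene Kat2b rose from 1260 ± 111 to 1621 ± 164 (0.36, limma adjusted p = 0.00499).

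Corepressor genes went both ways, with 3 lower and 2 higher among 10. Spen (-0.36) and Ctbp1 (-0.15) were among the lower genes, and the demethylase gene Kdm5a (0.42) and L3mbtl3 (0.24) were higher. Of the 15 turnover and trafficking genes, 4 were lower and 1 was higher. Aak1, a kinase gene of endocytosis, had the largest fall, from 6475 ± 1340 to 3681 ± 465 normalized counts (-0.80, limma adjusted p = 8.52e-04). Numb (-0.34), which encodes an inhibitor of NOTCH, Usp7 (-0.25) and Itch (-0.19) were lower too. Fbxw7, whose product marks intracellular NOTCH1 and MYC for degradation, rose from 1176 ± 100.2 to 1420 ± 145 (0.27, limma adjusted p = 0.0199).

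Of 20 further genes known as NOTCH targets in T cells or T-ALL, 18 were tested, 8 were lower and 1 was higher. Il7r, the interleukin 7 receptor gene, fell from 1667 ± 266 to 870 ± 184 normalized counts (-0.95, limma adjusted p = 0.00102). Il2ra (-0.73), Tcf7 (-0.42) and Relb (-0.32) followed. Il2ra measured 169, 212 and 186 in labelled Sirt1-deleted samples 7, 8 and 12, against 424 and 439 in samples 10 and 11 and 347 to 495 in controls, the division seen in Notch3. The cyclin gene Ccnd3 rose from 7499 ± 727 to 10871 ± 848 (0.54, limma adjusted p = 5.05e-04). Myc, a leading NOTCH1 target in T-ALL, did not pass (-0.097, limma adjusted p = 0.204), and Hey1 and Hey2, of the same family as Heyl, were near 0, with highest values of 7.50 and 6.10.

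**Figure D5:**
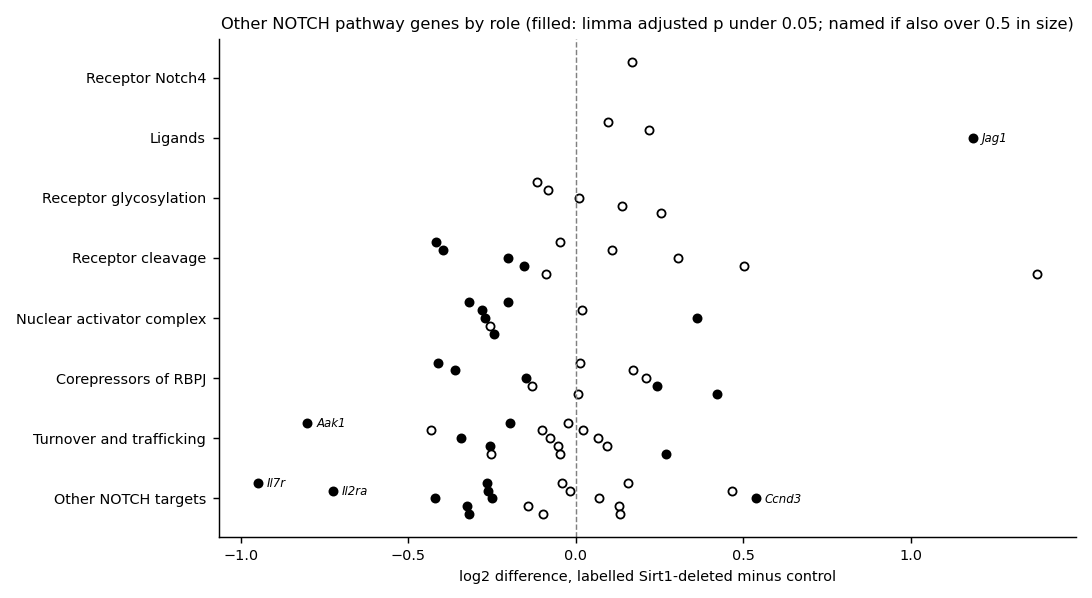
Log2 difference (horizontal axis, labelled Sirt1-deleted minus control) of the 70 tested pathway genes outside the members, by role (rows); filled points have a limma adjusted p under 0.05, and those over 0.5 in size are named. Filled points lie mostly at the left, with Jag1 at 1.19 and Ccnd3 at 0.54 at the right.

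Genes with the profile most like that of a member were sought by the mean absolute distance between log2 values centred over the 10 samples, among 10751 other genes with a mean of at least 100. Nearest to Notch1 were Tubg1 at a distance of 0.044, Kif18b at 0.044 and Polh at 0.047, against a mean deviation of Notch1 itself of 0.21. Tubg1 encodes gamma-tubulin, Kif18b a mitotic kinesin and Polh a DNA polymerase. Nearest to Dtx1 were Atp5g1 (0.039), Abt1 (0.041) and Eef1d (0.041), and nearest to Heyl were Ncald (0.073), Taf9 (0.075) and Tmem106b (0.082). All 9 genes passed the threshold in the direction of the member they resemble, which the distance favours by construction.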

How the data were processed

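RNA-seq of 10 leukemic spleen samples was used as deposited. The authors' deposited values are a normalized signal, gene counts divided by DESeq factors as the file's name states. The submitters' processing notes name kallisto 0.44.0, DESeq and mm10, with no role or order. The annotation, any gene filter and the use of strand in counting are not given in the sources used here; the libraries were strand-specific per the labels. Opposite-strand genes overlap Notch1, Notch3, Hes5, Nrarp and Ptcra in GENCODE M21. Low values lay within 0.1 of a whole multiple of the most frequent low value for 64.9% to 74.4% of values up to 8.5 reads, so whole reads were not recovered and no count model was used. Taken as the worth of 1 read, that value would put depth at 31.5 to 38.2 M reads, an estimate from which no counting interval was derived.

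Samples were grouped by the genotype label and are named by the number in their titles. Log2(value + 1) was compared with limma 3.58.1 in R 4.3.3 (group as the only term, intensity trend) for 15276 genes with a mean of at least 10, with Benjamini-Hochberg adjustment over all of them. The script was tested on simulated data. Exact two-sided permutation tests used the 252 assignments of the samples, and all errors are SD over 5 samples. Columns outside the 10 samples numbered 0. Named were the 10 members, the pathway genes that passed (at most 4 per role and direction, by size) or were near 0, and the 3 nearest genes of Notch1 and of the called member with the largest rise and fall. Ep300, Lfng, Psen2, Jag2, Notch4, Myc, Pdgfrb, Col1a1, Col1a2, Col3a1, Pecam1, Egfl7, Cdh5, Cd3e, Lck and Igkc were named after their values were seen. Named results of 2 pathway genes, which the counts include, are not reported here. Members and lists were chosen with earlier results of these data known. Alternatives were other pseudocounts (0.1 and 5), filters (minimum means of 1 and 50, none), scalings, limma settings, a rank-sum test, a threshold of 0.01 and leaving out samples.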

Additional observations from a re-analysis of the deposited data

How the results depend on the processing

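No paired analysis was made, because no pairs between control and labelled Sirt1-deleted samples are given in the sources used here. Whether samples of the 2 groups share a primary leukemia is not known. The count of 5 members that passed ranged from 4 to 6 over 11 alternatives with every sample and the same threshold, 3 at an adjusted p under 0.01 (1 higher, 2 lower), and 3 to 6 without 1 sample. It was 3 without control 2, where Notch1 and Hes5 no longer passed, and 8 without labelled Sirt1-deleted samples 10 and 11, an alternative added after seeing the data; there Notch3, Hes1, Nrarp and Ptcra passed too (-1.05, 0.31, -0.21 and -0.96) and Hes5 did not (-0.39, limma adjusted p = 0.0518). Pathway genes that passed numbered 16 at an adjusted p under 0.01, 21 with the exact rank-sum test and 23 to 37 without 1 sample. Over all genes the count was 2850 at an adjusted p under 0.01, 3659 with the exact rank-sum test and 4207 to 6259 without 1 sample; without samples 10 and 11 it was 6937 (45.6% of genes tested, against 36.1%). Upper-quartile rescaling turned the direction split of all genes from 46.4% to 58.2% higher, while the members stayed at 1 higher and 4 lower. It reversed Nrarp (0.013), which ranged from -0.11 to 0.0048 without 1 sample, turning positive without labelled Sirt1-deleted sample 8. Ptcra ranged from -0.47 to 0.045 without 1 sample and was positive without sample 7 (0.045) or 8 (0.036). Notch2, Dtx1 and Heyl kept direction and call in all of these fits, and the Sirt1 difference stayed positive and short of the threshold. Depth is known only approximately, so no counting error could be given for low genes such as Dll4 or Hey1.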

Other observations

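The genes closest to Ptcra and Notch3 by the same distance were looked up after their values had been seen. Nearest to Ptcra were Gm8909, Arsi and Lmcd1, at distances of 0.23, 0.25 and 0.26, farther than for the members named in the report and against a mean deviation of Ptcra of 0.56. Arsi, an arylsulfatase gene, measured 1236, 1280 and 1396 normalized counts in labelled Sirt1-deleted samples 7, 8 and 12, 2885 and 2693 in samples 10 and 11, and 1657 to 2632 in controls. Lmcd1 measured 41.8, 29.7 and 48.3 in samples 7, 8 and 12, 267 and 254 in samples 10 and 11, and 90.4 to 143 in controls. Nearest to Notch3 were Coa7, Exoc3l4 and Pdgfrb, at distances of 0.14, 0.15 and 0.16. Pdgfrb, which encodes a growth factor receptor of mural cells, measured 1202, 1266 and 985 in labelled Sirt1-deleted samples 7, 8 and 12, and 2169 and 1675 in samples 10 and 11. Its controls measured 1764 to 2618.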
